A study of Mus musculus with 8 samples.

Results

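The glycolysis and glucose uptake genes Slc2a1, Hk1, Hk2, Gpi1, Pfkl, Aldoa, Pgk1, Eno1, Pkm2 (current symbol Pkm) and Ldha were read in sorted cells of the arteries of mouse embryos. They were chosen by gene name and are 10 of 19545 genes tested, read by 15 of the array's 39429 non-control probes. All 10 genes passed the filter on dim probes, and each was well above background on every array, apart from an Hk1 spot left out as an outlier. Conceptuses came from C57BL/6 x 129S1/SVImJ F1 females mated with Tg(Ly6a-GFP) males. In this transgene the promoter of the stem cell antigen gene Ly6a drives green fluorescent protein (GFP), and all 4 groups came from this cross. At E10.5 (embryonic day) the aorta-gonad-mesonephros region with the umbilical and vitelline arteries was taken from 100 embryos, which were pooled and are labelled male. Hematopoietic cluster cells, the Kit+ cells that bud from the arterial wall, and Kit- endothelial cells, both CD31+ VEC+ ESAM+, were each divided by GFP. The sort gave 30000 GFP+ and 130000 GFP- cells from the clusters, and 70000 GFP+ and 300000 GFP- from the endothelium. Each of these 4 groups was a single pool whose RNA was split into 2 fractions, one for each of its 2 arrays. The p-values therefore measure the technical spread between arrays of divided RNA and say nothing about other pools or sorts.

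Glycolysis turns glucose into pyruvate and yields ATP without oxygen. Glucose enters through facilitative transporters such as GLUT1, hexokinases trap it by phosphorylation, and phosphofructokinase commits it to the pathway. A chain of enzymes from aldolase to pyruvate kinase then makes pyruvate, which lactate dehydrogenase can reduce to lactate. Endothelial cells draw most of their ATP from glycolysis, blood stem cells are known for a glycolytic metabolism, and many glycolytic genes are targets of the hypoxia-inducible factors (HIF) and of MYC.

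The bases before the start of genes that stand for the patterns described below are shown first, because these genes are textbook targets of factors that bind the motifs looked for. They are RefSeq windows of 250 bases on GRCm38.p6, read 5′ to 3′ on the gene's strand. Capitals mark ACGTG, the core of the HIF element, its relative GCGTG and the MYC E-box CACGTG, each searched on both strands. A CACGTG holds ACGTG on both strands and counts under both motifs.
Slc2a1, chr4:119108495-119108744, + strand: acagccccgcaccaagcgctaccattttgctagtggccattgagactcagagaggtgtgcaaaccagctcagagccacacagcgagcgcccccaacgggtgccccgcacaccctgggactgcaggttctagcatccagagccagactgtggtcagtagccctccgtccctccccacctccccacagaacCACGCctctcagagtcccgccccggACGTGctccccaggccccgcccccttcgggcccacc
Pfkl, chr10:78009808-78010057, - strand: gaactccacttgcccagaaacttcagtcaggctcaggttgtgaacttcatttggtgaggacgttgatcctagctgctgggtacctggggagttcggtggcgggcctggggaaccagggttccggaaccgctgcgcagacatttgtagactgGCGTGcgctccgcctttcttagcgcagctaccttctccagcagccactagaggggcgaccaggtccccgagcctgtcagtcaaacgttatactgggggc
Hk2, chr6:82774455-82774704, - strand: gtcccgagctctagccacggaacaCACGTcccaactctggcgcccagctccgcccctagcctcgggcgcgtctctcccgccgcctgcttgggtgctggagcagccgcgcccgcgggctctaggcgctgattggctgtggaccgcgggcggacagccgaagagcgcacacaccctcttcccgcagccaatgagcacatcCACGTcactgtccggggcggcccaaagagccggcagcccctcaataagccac
Pgk1, chrX:106186850-106187099, + strand: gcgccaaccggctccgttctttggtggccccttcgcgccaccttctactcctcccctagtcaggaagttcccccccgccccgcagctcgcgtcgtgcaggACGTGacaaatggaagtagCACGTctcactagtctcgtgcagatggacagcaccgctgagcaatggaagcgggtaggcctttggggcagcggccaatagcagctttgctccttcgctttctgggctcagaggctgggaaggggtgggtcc
Ldha, chr7:46845554-46845803, + strand: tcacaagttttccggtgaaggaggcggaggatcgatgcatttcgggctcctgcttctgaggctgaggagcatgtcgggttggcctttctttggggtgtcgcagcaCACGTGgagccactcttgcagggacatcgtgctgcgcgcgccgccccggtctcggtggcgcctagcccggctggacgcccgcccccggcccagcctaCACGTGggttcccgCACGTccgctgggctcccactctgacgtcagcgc
All 10 genes had a window in the table, and genes with several starts had several. ACGTG stood in a window of 6 of the 10 genes, against 18.5% of all 27025 genes with a window, and GCGTG in 5, against 30.9%. CACGTG was in Ldha alone among the 10, against 6.86% of all genes. A gene counted if any of its windows held the motif, so genes with several windows had more bases searched. The Ldha window above held 5 ACGTG matches, of which its 2 CACGTG sites gave 4. The other Ldha window held neither of these motifs but 1 GCGTG. The Slc2a1 window, whose gene was lower in GFP+ cells, and the Hk2 window, whose gene was higher, both held ACGTG, and the Pfkl window held a GCGTG and no ACGTG. A match is a description of these letters, and no binding was measured here.

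Levels are log2 processed signals minus the array's 75th percentile, so a level of 0 is the 75th percentile of that array, and each gene is represented by its brightest probe. The 75th percentiles ran from 708.3 to 1477 signal units, between 55.43% and 64.52% of spots were well above background, and no spot was saturated. Levels are given in the order first array, second array, and they are compared within a gene only, because probes differ in brightness for reasons of their sequence. A gene is said to differ, or to be called, where limma's Benjamini-Hochberg adjusted p over all 19545 genes was under 0.05. Each group comparison set 2 arrays against 2. In such bulk samples, fewer cells of a type and less RNA per cell cannot be told apart. Markers of both labelled classes were read: the 10 endothelial markers were above background on both arrays of all groups, cluster cells included, and the summed level of 10 blood markers, taking the 75th percentile as 1, was 44.6 to 45.8 in GFP+ cluster cells, 11.3 to 11.4 in GFP- cluster cells, 5.21 to 5.30 in GFP+ and 2.96 to 3.09 in GFP- endothelial cells.

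**Figure D1:**
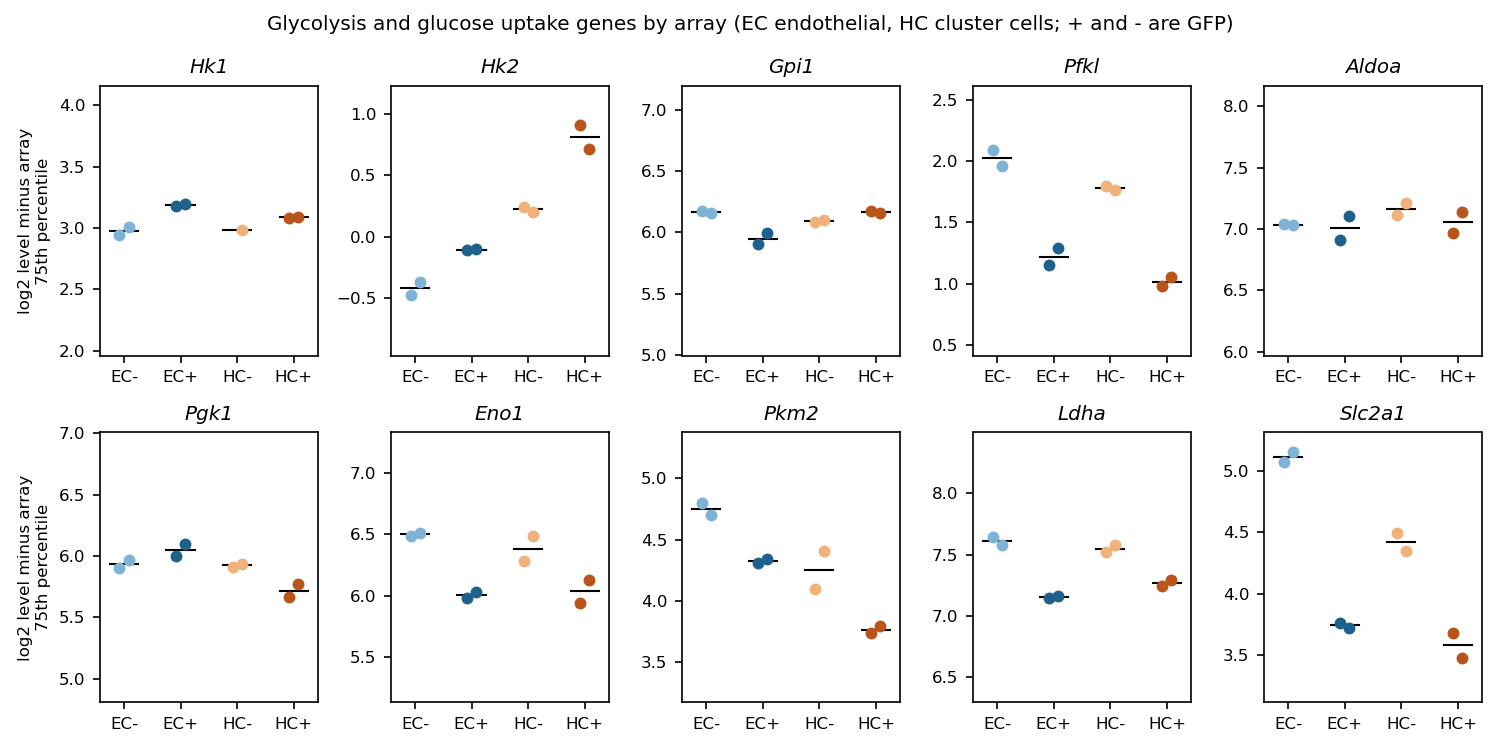
Level of each gene on each array (y axis, log2 relative to the array's 75th percentile, the same span in every panel) in endothelial (EC) and cluster (HC) cells with and without GFP. Points are arrays and lines are group means; Slc2a1 and Pfkl were lower on every GFP+ array than on any GFP- array, Hk2 was highest in GFP+ cluster cells, and 1 Hk1 spot is left out.

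Slc2a1, which encodes the glucose transporter GLUT1, had the largest GFP difference of the 10 genes in endothelial cells, and in cluster cells one that was larger or smaller than that of Pfkl depending on the scaling (-0.84 against -0.77 here, -0.73 against -0.74 with quantile normalization). Its levels (probe at chr4:118809864-118809923, mm9) were 5.07 and 5.15 in GFP- endothelial cells, 4.50 and 4.35 in GFP- cluster cells, 3.76 and 3.72 in GFP+ endothelium and 3.68 and 3.47 in GFP+ cluster cells. Every GFP- array read higher than every GFP+ array, and no groups overlapped. The gene was lower in GFP+ endothelial cells by a log2 difference of -1.37 ± 0.090 (SE, limma, adjusted p = 0.000339), which is 2.59-fold. In GFP+ cluster cells it was lower by a log2 difference of -0.84 ± 0.090 (adjusted p = 0.00146), or 1.80-fold. Among the GFP- groups it was lower in cluster than in endothelial cells (-0.69 ± 0.090, adjusted p = 0.0065), whereas both GFP+ groups, its lowest neighbours, had a log2 difference of -0.16 (95% confidence interval -0.39 to 0.059) that did not pass. The calls by GFP held with any array left out, with differences of -0.95 to -0.74 in cluster and -1.41 to -1.33 in endothelial cells.

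Of the hexokinases, Hk2, the inducible form, was higher with GFP in both classes. It read -0.47 and -0.37 in GFP- endothelial cells, -0.11 and -0.10 in GFP+ endothelial cells, 0.24 and 0.20 in GFP- cluster cells and 0.91 and 0.72 in GFP+ cluster cells (probe at chr6:82675056-82675115, mm9). No groups overlapped, and each of the 4 tested neighbouring or matched comparisons passed. Hk2 was higher with GFP by 0.59 ± 0.078 in cluster cells (SE, adjusted p = 0.00322, 1.51-fold) and by 0.31 ± 0.078 in endothelial cells (adjusted p = 0.0194). It was higher in cluster than in endothelial cells by 0.92 ± 0.078 among GFP+ cells (adjusted p = 0.000482) and by 0.64 ± 0.078 among GFP- cells (adjusted p = 0.00541). The endothelial call was lost without either GFP+ endothelial array or the first GFP- one, where the adjusted p reached 0.0697 to 0.0939 and the difference stayed between 0.26 and 0.37.

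Hk1, the hexokinase that most tissues carry, varied little by its brightest probe (chr10:61731856-61731915, mm9). Its level was 2.94 and 3.01 in GFP- endothelial cells, 3.18 and 3.20 in GFP+ endothelial cells, 3.08 and 3.09 in GFP+ cluster cells and 2.98 on the second GFP- cluster array. The spot of the first GFP- cluster array, flagged as an outlier by the scanner software, read 2.43 and was left out, so values for that group rest on 1 array. GFP+ endothelial cells were higher by 0.21 ± 0.048 (adjusted p = 0.0207), a call lost without either GFP+ endothelial array or the first GFP- one (adjusted p of 0.0742 to 0.0882, difference 0.18 to 0.25). A dimmer probe of Hk1 lies further from the 3′ end, on chr10:61732717-61732776 of mm9, and is shown because the call rests on the other probe.
Hk1 probe at transcript base 2983: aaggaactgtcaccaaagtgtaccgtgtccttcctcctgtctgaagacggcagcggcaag
By this probe no comparison passed, and its endothelial GFP difference was -0.16 ± 0.099 (adjusted p = 0.225).

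Phosphoglucose isomerase (Gpi1) and phosphofructokinase carry the sugar from the hexokinase product to the committed step. Pfkl, the liver-type phosphofructokinase (probe at chr10:77450926-77450985, mm9), read 2.09 and 1.96 in GFP- endothelial cells, 1.80 and 1.77 in GFP- cluster cells, 1.15 and 1.29 in GFP+ endothelium and 0.98 and 1.06 in GFP+ cluster cells. As with Slc2a1, all GFP- arrays lay above all GFP+ arrays. Pfkl was lower with GFP by a log2 difference of -0.81 ± 0.073 in endothelial cells (adjusted p = 0.000787, 1.75-fold) and -0.77 ± 0.073 in cluster cells (adjusted p = 0.00102, 1.70-fold). Between the classes it did not pass at either GFP state (-0.20, adjusted p = 0.0657, and -0.24, adjusted p = 0.0631), although the arrays did not overlap. The GFP calls held with any array left out.

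Gpi1 (probe at chr7:34987178-34987237, mm9) was near 6 on the log2 scale everywhere, with 6.17 and 6.16 in GFP- endothelial cells, 5.90 and 5.99 in GFP+ endothelial cells, 6.08 and 6.10 in GFP- cluster cells and 6.17 and 6.16 in GFP+ cluster cells. GFP+ endothelial cells lay below the other groups, by a log2 difference of -0.22 ± 0.047 from GFP- endothelial cells (adjusted p = 0.0124), and GFP+ cluster cells lay above them by 0.22 ± 0.047 (adjusted p = 0.0122, but -7.29e-06 with median centring). The first call turned with the scaling, to a higher value in GFP+ cells of 0.14 with quantile normalization (adjusted p = 0.034), so no direction is given for it. It was also lost without the first array of either endothelial group (adjusted p of 0.0554 to 0.0626, difference -0.26 to -0.17), as was the second without the first GFP+ endothelial array (adjusted p = 0.0618, difference 0.17 to 0.26 over the arrays left out). Gpi1 has 3 probes, which overlap by 55 to 59 bases with 1 to 3 mismatches and so are not independent readings. Tested each on its own, their endothelial differences were -0.22, -0.30 and -0.21, all called, while one of them did not pass between the GFP+ groups (0.13, adjusted p = 0.0756).

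The enzymes from aldolase to pyruvate kinase ranged from Aldoa, with no call, to Pkm2, which was called in all 4 comparisons. Aldoa, the aldolase of most tissues (probe at chr7:133938816-133938875, mm9), lay between 6.91 and 7.21 on all 8 arrays and passed in no comparison. Its endothelial GFP difference of -0.027 turned to 0.36 with quantile normalization, where it passed (adjusted p = 0.00557). Pgk1, which encodes phosphoglycerate kinase, the first ATP-making step (probe at chrX:103398640-103398699, mm9), read 5.90 and 5.97 in GFP- endothelial cells, 6.00 and 6.10 in GFP+ endothelial cells, 5.91 and 5.94 in GFP- cluster cells and 5.66 and 5.77 in GFP+ cluster cells. GFP+ cluster cells were the low group, by -0.33 ± 0.062 against GFP+ endothelial cells (adjusted p = 0.00737) and by -0.21 ± 0.062 against GFP- cluster cells (adjusted p = 0.0488). The latter call was lost without any one of the 8 arrays (adjusted p of 0.0587 to 0.183, difference -0.26 to -0.16).

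Eno1, the enolase of most tissues (probe at chr4:149622928-149622987, mm9), read 6.49 and 6.51 in GFP- endothelial cells, 5.98 and 6.03 in GFP+ endothelial cells, 6.28 and 6.48 in GFP- cluster cells and 5.94 and 6.13 in GFP+ cluster cells. It was lower with GFP in endothelial cells (-0.49 ± 0.094, adjusted p = 0.00812), also with any array left out. In cluster cells the difference of -0.35 ± 0.094 (adjusted p = 0.0379) passed without the first GFP- or the second GFP+ cluster array but not without any other (adjusted p of 0.0635 to 0.15, difference -0.45 to -0.24). Pkm2, named for the M2 form of pyruvate kinase but read by a probe that is not known here to tell the splice forms apart, was ordered otherwise (chr9:59526867-59526926, mm9). It read 4.80 and 4.70 in GFP- endothelial cells, 4.31 and 4.34 in GFP+ endothelial cells, 4.10 and 4.41 in GFP- cluster cells and 3.74 and 3.79 in GFP+ cluster cells.

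Pkm2 was thus lowest in GFP+ cluster cells, on both arrays, and highest in GFP- endothelial cells. The GFP difference was -0.49 ± 0.10 in cluster cells (adjusted p = 0.0181) and -0.42 ± 0.10 in endothelial cells (adjusted p = 0.0192). Cluster cells were lower than endothelial cells by -0.56 ± 0.10 among GFP+ cells (adjusted p = 0.00744) and by -0.50 ± 0.10 among GFP- cells (adjusted p = 0.0241). The call in cluster cells was lost without either GFP+ cluster array (adjusted p of 0.0584 to 0.0795, difference -0.64 to -0.33), and that in endothelial cells without any of the 4 endothelial arrays (adjusted p of 0.0535 to 0.0926, difference -0.47 to -0.37). The call among GFP- cells was lost without either GFP- endothelial array or the first GFP- cluster array (adjusted p of 0.0573 to 0.111, difference -0.65 to -0.34).

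Ldha, the lactate dehydrogenase subunit that favours lactate formation, was read by 3 probes that did not tell one story. By the brightest, at base 1755 of the transcript (chr7:54110937-54110996, mm9), levels were 7.64 and 7.58 in GFP- endothelial cells, 7.52 and 7.58 in GFP- cluster cells, 7.24 and 7.29 in GFP+ cluster cells and 7.15 and 7.16 in GFP+ endothelium. All GFP+ arrays lay below all GFP- arrays, with differences of -0.46 ± 0.049 in endothelial cells (adjusted p = 0.00121) and -0.28 ± 0.049 in cluster cells (adjusted p = 0.00848). The latter was lost without the second GFP- cluster array (adjusted p = 0.0527, difference -0.31 to -0.26 over the arrays left out). The other probes are upstream, on chr7:54103010-54103069 and chr7:54107294-54107353 of mm9, + strand.
Ldha probe at transcript base 351: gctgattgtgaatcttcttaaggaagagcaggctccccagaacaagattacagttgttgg
Ldha probe at transcript base 970: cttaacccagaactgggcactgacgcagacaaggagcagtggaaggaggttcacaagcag
With every probe tested on its own, the endothelial GFP difference was -0.57 ± 0.075 at base 351 (adjusted p = 0.00231) and -0.22 ± 0.066 at base 970 (adjusted p = 0.0371), so all 3 probes were lower with GFP there. In cluster cells the probe at base 970 was lower by -0.38 ± 0.066 (adjusted p = 0.00967), and that at base 351 had a difference of -0.05 ± 0.075 that did not pass. Among GFP+ cells the probes went opposite ways. Cluster cells read higher than endothelial cells by 0.36 ± 0.075 at base 351 (adjusted p = 0.0114), lower by -0.40 ± 0.066 at base 970 (adjusted p = 0.00472), and 0.11 ± 0.049 at base 1755 did not pass (adjusted p = 0.105). No direction between the classes is therefore given for Ldha.

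**Figure D2:**
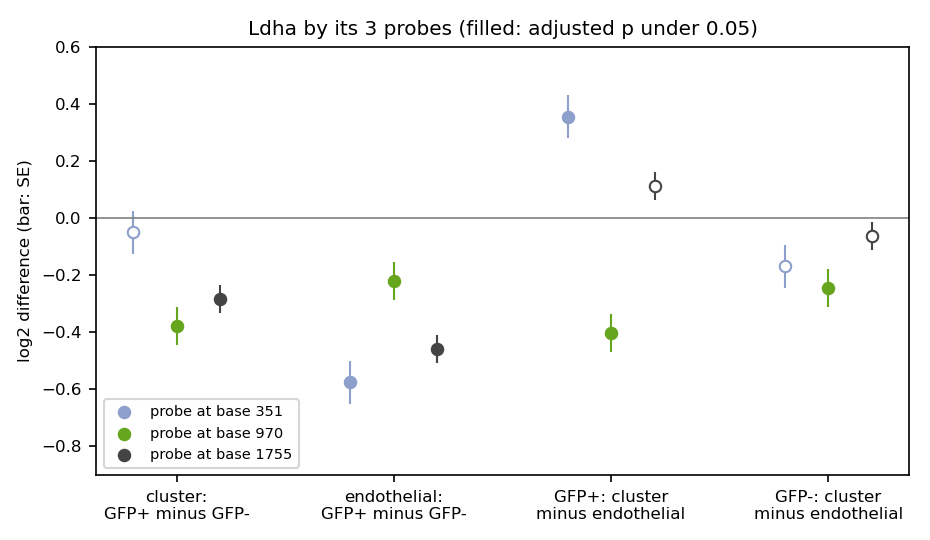
Log2 difference of each Ldha probe (y axis, bars are standard errors of limma's fit) in 4 comparisons of 2 against 2 arrays (x axis), by the probe's first base in the transcript. In endothelial cells all 3 probes were lower with GFP, and among GFP+ cells the probe at base 351 lay at 0.36 and the probe at base 970 at -0.40.

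Counted over the genes, 6 of the 10 were called lower and 1, Hk2, higher in GFP+ than in GFP- cluster cells, where 32.7% of all genes were called, 20.9% lower and 11.8% higher. In endothelial cells 6 were called lower and 2, Hk1 and Hk2, higher, where 51.5% of all genes were called, 33.4% lower and 18.1% higher. The median difference of the 10 was -0.25 in cluster and -0.32 in endothelial cells, against -0.076 and -0.13 over all genes. The genes lower in both classes were Slc2a1, Pfkl, Eno1, Pkm2 and Ldha. The 2 GFP comparisons share no array, but they share the embryos pooled, the slides and the variance of the same fit, so they are not independent.

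These counts depended on how the arrays were scaled. The lowest mean level of the 10 genes over the arrays, leaving out the dimmer Hk2, was 1.51. The 5211 genes at or above it, a set chosen after the values were seen, do not include Hk2. Of them, 27.2% were called lower with GFP in the clusters and 50.4% in the endothelium, with medians of -0.12 and -0.20. Quantile normalization gives every array the same distribution and so leaves little room for such a shift. The medians of these bright genes were then -0.0016 and 0.00022. The median of the 10 genes was then -0.092 in cluster and 0.030 in endothelial cells, with 2 higher and 2 lower in the former and 5 higher and 2 lower in the latter. Slc2a1 (-0.73 and -1.08), Pfkl (-0.74 and -0.75) and Hk2 (0.61 and 0.29) kept their calls in both classes; with median centring the endothelial Hk2 difference of 0.38 did not pass (adjusted p = 0.0582). Eno1, Pkm2 and Ldha kept their sign with smaller differences that did not pass: -0.19, -0.36 and -0.14 in cluster cells and -0.15, -0.14 and -0.08 in endothelial cells. Pgk1 lay at -0.049 in cluster cells, where it did not pass, and was called higher in GFP+ endothelial cells (0.47), and Gpi1 was called higher in GFP+ cells of both classes (0.20 and 0.14). The authors' normalized table gave the same counts of the 10 genes in both classes. Its differences were nearly those after quantile normalization, such as -1.08 for Slc2a1 in endothelial cells in both, so it is not a separate check. With the planned normexp background correction none of the 10 was called in any comparison (limma, adjusted p), where 100 to 126 of all genes were called by GFP. The differences by GFP in cluster and endothelial cells were then -0.80 and -1.03 for Slc2a1 (SE 0.25), -0.71 and -0.58 for Pfkl (SE 0.24) and 0.61 and 0.18 for Hk2 (SE 0.18), with standard errors above those given for these genes before. Fitted without the lowest spots, that correction called 1 higher and 4 lower in cluster and 1 higher and 6 lower in endothelial cells. Of all genes it then called 4588 in cluster cells, 1816 of them higher, and 7562 in endothelial cells, 2613 of them higher.

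**Figure D3:**
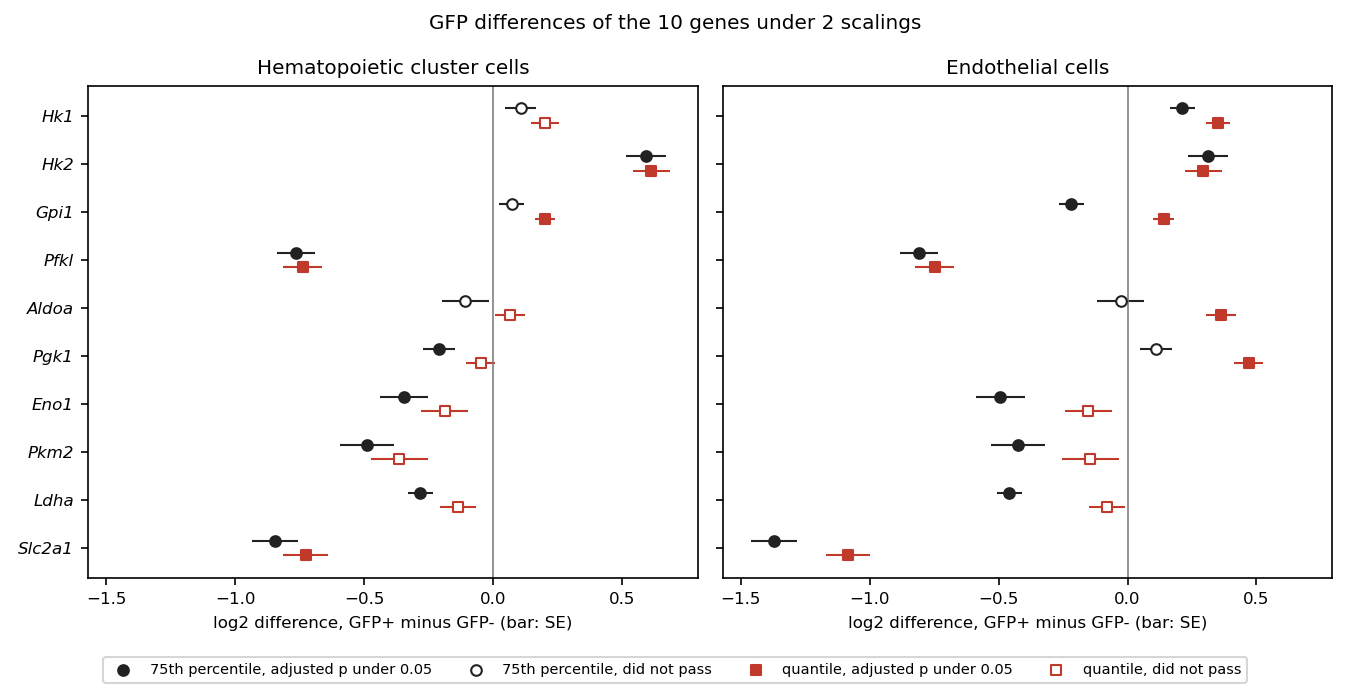
Log2 difference of GFP+ minus GFP- cells (x axis, bars are standard errors) for the 10 genes (y axis) in cluster and endothelial cells, 2 against 2 arrays, with the 75th percentile scaling and with quantile normalization. Slc2a1, Pfkl and Hk2 have filled symbols under both scalings in both panels, and Gpi1 in endothelial cells crosses from -0.22 to 0.14.

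Between the classes, 2 of the 10 genes were called higher in cluster cells, Hk2 and Gpi1, and 2 lower, Pgk1 and Pkm2, among GFP+ cells, where 50.3% of all genes were called (26.1% higher and 24.2% lower). Among GFP- cells Hk2 was higher and Slc2a1 and Pkm2 lower, where 24.3% of all genes were called (11.8% higher and 12.4% lower). The medians of the 10 genes, -0.034 and -0.066, stood beside 0.033 and 0.0042 over all genes. Hk2 higher and Pkm2 lower were thus the calls made at both GFP states, and the Pkm2 call among GFP- cells did not pass after quantile normalization (-0.34, adjusted p = 0.0901). Centring arrays on their median moved the median of all genes to -0.19 among GFP+ and -0.14 among GFP- cells. Hk2 passed there at both GFP states, at 0.70 and 0.50.

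**Figure D4:**
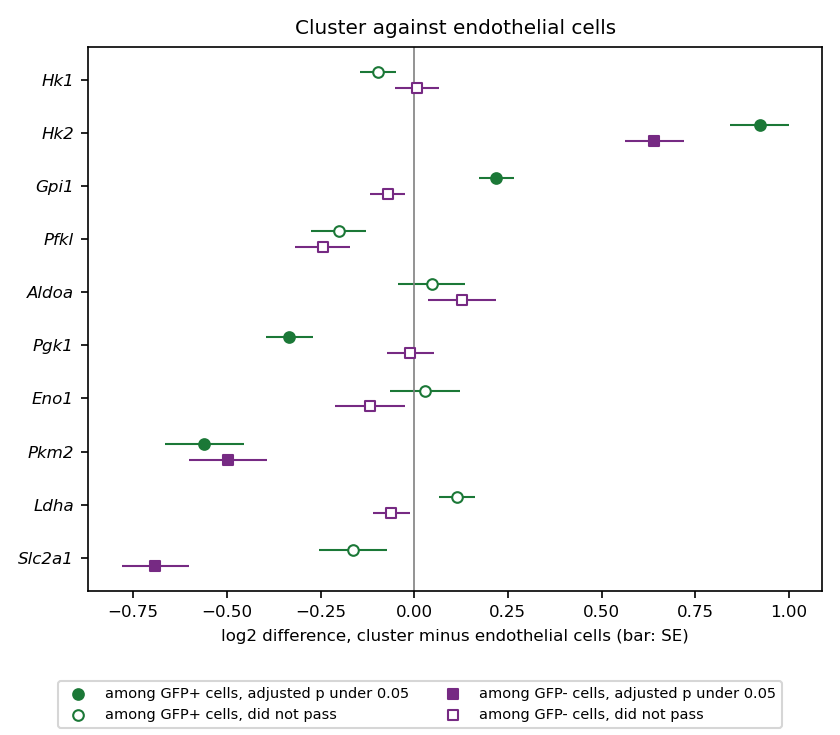
Log2 difference of cluster minus endothelial cells (x axis, bars are standard errors) for the 10 genes (y axis) among GFP+ and among GFP- cells, 2 against 2 arrays. Hk2 lies to the right at 0.92 and 0.64 and Pkm2 to the left at -0.56 and -0.50, while Slc2a1 is lower in cluster cells among GFP- cells at -0.69.

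Whether the GFP difference itself differed between the classes was tested by the interaction, cluster minus endothelial, which called 31.1% of all genes. Among the 10, Slc2a1 (0.53 ± 0.13, adjusted p = 0.0285), Gpi1 (0.29 ± 0.067, adjusted p = 0.0253) and Pgk1 (-0.32 ± 0.088, adjusted p = 0.0407) passed. For Slc2a1 this means a smaller drop with GFP in cluster than in endothelial cells. These calls are by the brightest probes. With every probe tested on its own, the interaction at base 351 of Ldha passed (0.52 ± 0.11, limma, adjusted p = 0.0179). Those at base 970 (-0.16) and base 1755 (0.175) of Ldha did not pass. A Gpi1 probe other than the brightest did not pass either (0.22, adjusted p = 0.0598). The difference between classes for Pfkl was 0.043 (95% confidence interval -0.21 to 0.30), so a drop that differs by that much between classes was within the error. The Hk2 interaction of 0.28 ± 0.11 did not pass (adjusted p = 0.105). It passed without the second GFP+ cluster array (adjusted p = 0.0424, difference 0.18 to 0.38 over the arrays left out) and with trended, robust moderation of the variances (adjusted p = 0.0462). After quantile normalization Pgk1 passed (-0.52, adjusted p = 0.00805), Slc2a1 did not (0.36, adjusted p = 0.0793) and neither did Gpi1 (0.062). Each of the 3 calls was lost without most single arrays: that of Slc2a1 except without the first GFP- or the second GFP+ cluster array (adjusted p up to 0.0873, 0.42 to 0.63), that of Gpi1 except without the second GFP+ endothelial array (up to 0.0826, 0.25 to 0.33), and that of Pgk1 except without the second GFP+ cluster array (up to 0.111, -0.38 to -0.27).

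Sums of markers of other cells and of proliferation were read beside these differences. The summed level of 16 erythroid markers, globin genes among them, was 749.9 to 773.6 in GFP- endothelial cells, 163.4 to 171.1 in GFP+ endothelial cells, 1137 to 1153 in GFP- cluster cells and 150.9 to 151.9 in GFP+ cluster cells. At least 15 of the 16 were well above background on both arrays of every group. The sum rested mostly on globin genes, such as Hbb-y at a level of 8.46 in GFP- endothelial cells. It fell with GFP in both classes, as Slc2a1 and Pfkl did, and 15 of the 16 markers were called lower in each. Between the GFP- groups it was higher in cluster cells, where Slc2a1 and Pkm2 were lower and Pfkl, Eno1 and Ldha, by their brightest probes, did not pass. The summed level of 13 myeloid markers rose in the order of Hk2, from 7.39 to 7.45 in GFP- endothelial cells, 13.4 to 14.0 in GFP+ endothelial cells and 20.1 to 20.7 in GFP- cluster cells to 55.8 to 56.8 in GFP+ cluster cells. Of the 13, 11 were well above background on both arrays in GFP- endothelial cells, 12 in GFP+ endothelial and GFP- cluster cells and 13 in GFP+ cluster cells. The sum of 15 proliferation genes was 267 to 272 and 271 to 273 in the GFP- groups of endothelial and cluster cells and 243 to 246 and 239 to 245 in their GFP+ groups. Of the 15, 0 were called higher and 5 lower with GFP in cluster cells, and 2 higher and 5 lower in endothelial cells. Bright genes in general also read lower with GFP under this scaling, as given above. Of 12 mesenchyme and smooth muscle markers the sum was 42.2 to 42.6 in GFP- and 37.1 to 37.5 in GFP+ endothelial cells, and 37.3 to 37.8 in GFP- and 31.2 to 32.0 in GFP+ cluster cells. It was thus lowest in GFP+ cluster cells and highest in GFP- endothelial cells, as the group means of Pkm2, Slc2a1 and Pfkl were. Of the 11 tested, 7 were called lower and 2 higher with GFP in cluster cells, and 6 lower and 2 higher in endothelial cells. The sum of 6 liver and yolk sac markers was 9.18 to 9.55 in GFP- and 6.74 to 6.85 in GFP+ endothelial cells, where 5 were called lower. It was 5.84 to 5.89 and 4.89 to 4.96 in GFP- and GFP+ cluster cells, where 2 were called higher and 2 lower. The median difference of the 6 there was 0.14, and the sum followed Afp, the brightest of them (2.36 and 2.04). Like the mesenchyme sum, the sum of the 6 was lowest in GFP+ cluster cells and highest in GFP- endothelial cells. The part of other cells or of proliferation in the differences was not tested.

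By a fixed rule, the genes outside the lists used here whose levels went most alike over the 8 arrays were named, among 12008 genes well above background on all of them. For Slc2a1 these were Cenpq and Nup35 (r = 0.996 and 0.995), for Pfkl Gnb4 and Smarca1 (0.999 and 0.997) and for Hk2 Celf2 and Arhgap9 (0.995 and 0.994). The 8 arrays are 4 groups of 2 that share each group's RNA, so these values describe an order of group means and carry no test.

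The rest of glycolysis was read by 17 other enzyme genes. In cluster cells 2 were higher with GFP, 4 lower and 11 did not pass, and in endothelial cells 1 was higher, 8 lower and 8 did not pass. The median of the list was -0.092 and -0.26. Pfkp, the platelet-type phosphofructokinase, was lower in both classes (-0.50 ± 0.078 in cluster and -0.35 ± 0.078 in endothelial cells), as was the muscle enolase Eno3 (-0.47 and -0.62). Bpgm, which makes the 2,3-bisphosphoglycerate that lowers the oxygen affinity of hemoglobin in red cells, was lower in GFP+ cluster cells (-0.69 ± 0.068), and its GFP difference differed between the classes (interaction -0.88 ± 0.096). Pklr, the pyruvate kinase of liver and red cells, was well above background on all 4 GFP- arrays, at levels of -4.40 and -4.22 in endothelial and -3.19 and -3.25 in cluster cells, and on none of the GFP+ arrays. Erythroid markers moved alike, as given above. The housekeeping enzyme gene Gapdh was lower in GFP+ endothelial cells (-0.34 ± 0.086), but lay at 0.029 after quantile normalization.

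Of 13 genes of hexose transport and its control, 11 were tested, and 1 was higher and 5 lower with GFP in each class. Slc2a4, which encodes the insulin-responsive GLUT4, read -1.68 and -1.63 in GFP- cluster cells and -3.49 and -3.45 in GFP+ cluster cells, a difference of -1.81 ± 0.045 (adjusted p = 2e-05). In endothelial cells it was lower by -0.68 ± 0.045. Txnip, which removes GLUT1 from the membrane, was the gene higher in both (0.38 ± 0.082 and 0.46 ± 0.082), opposite to Slc2a1. Slc2a3, which encodes the high-affinity transporter GLUT3, was higher in cluster than in endothelial cells by 0.55 ± 0.095 among GFP+ and 0.47 ± 0.095 among GFP- cells, and no GFP difference of it passed (0.27 in cluster and 0.19 in endothelial cells).

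Among 21 tested genes that switch glycolysis or decide the fate of pyruvate, 1 was higher and 6 lower with GFP in cluster cells, and 2 higher and 8 lower in endothelial cells. Pdk1, a kinase that inhibits pyruvate dehydrogenase, was lower in both (-0.47 ± 0.047 and -0.41 ± 0.047), as was Tigar, a phosphatase that restrains glycolysis (-0.35 and -0.44). In cluster cells Pfkfb4, which sets the level of the phosphofructokinase activator, was lower by -0.56 ± 0.053, and Slc16a3, the lactate exporter MCT4, by -0.44 ± 0.042. In endothelial cells the mitochondrial pyruvate carrier gene Mpc1 (-0.46 ± 0.082) and Pdhb of pyruvate dehydrogenase (-0.46 ± 0.060) were lower.

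Of 15 tested genes of gluconeogenesis and glycogen, 1 was higher and 6 lower with GFP in cluster cells, and 0 were higher and 7 lower in endothelial cells by limma's adjusted p. The liver glycogen phosphorylase Pygl was higher in GFP+ cluster cells (0.78 ± 0.059), where the brain form Pygb was lower (-0.44 ± 0.076). Pcx, pyruvate carboxylase, was lower in both classes (-0.78 ± 0.10 and -0.58 ± 0.10). In the pentose phosphate pathway, which draws sugar off for NADPH and nucleotides, 1 of 8 genes was higher in GFP+ cluster cells, H6pd (0.41 ± 0.042), and 3 were lower in GFP+ endothelial cells. Among these the transketolase gene Tkt fell by 0.76 ± 0.053 on the log2 scale, and Taldo1 (-0.34) lay at -0.020 after quantile normalization.

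Regulators of HIF and MYC and other HIF targets were counted last. Of 14 tested regulators, 5 were higher and 2 lower with GFP in endothelial cells, among them Epas1, which encodes HIF-2 alpha (1.03 ± 0.044), and Myc (0.53 ± 0.045). In cluster cells 2 were higher and 3 lower, with Mycn at 0.86 ± 0.047 and Hif1a at -0.27 ± 0.044. Of 15 tested HIF targets outside glycolysis, 6 were higher and 2 lower in GFP+ endothelial cells, such as Vegfa (1.19 ± 0.052) and Ddit4 (0.81 ± 0.052), and 3 were higher and 7 lower in GFP+ cluster cells, such as Car9 (0.72 ± 0.11) and Ndrg1 (-0.75 ± 0.053). These counts are read beside the shares of all genes called given above, and the direction of a list was not tested.

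The list counts also depended on the scaling, most with median centring. In endothelial cells the other glycolytic enzymes then had 1 higher and 3 lower, with 4 of the 9 calls kept, the switches and pyruvate genes 1 higher and 1 lower, with 2 of 10 calls kept, and the gluconeogenesis and glycogen genes 0 higher and 3 lower, by limma's adjusted p. In cluster cells the HIF targets had 1 higher and 2 lower, with 3 of 10 calls kept, the regulators 1 higher and 1 lower, the switches and pyruvate genes 0 higher and 4 lower, and the gluconeogenesis and glycogen genes 1 higher and 2 lower. After quantile normalization 2 of the 9 called enzymes turned sign in endothelial cells, and 7 calls were kept. The endothelial counts were then 6 higher and 2 lower for the regulators and also for the HIF targets, beside 5 higher and 2 lower of the 10 genes.

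**Figure D5:**
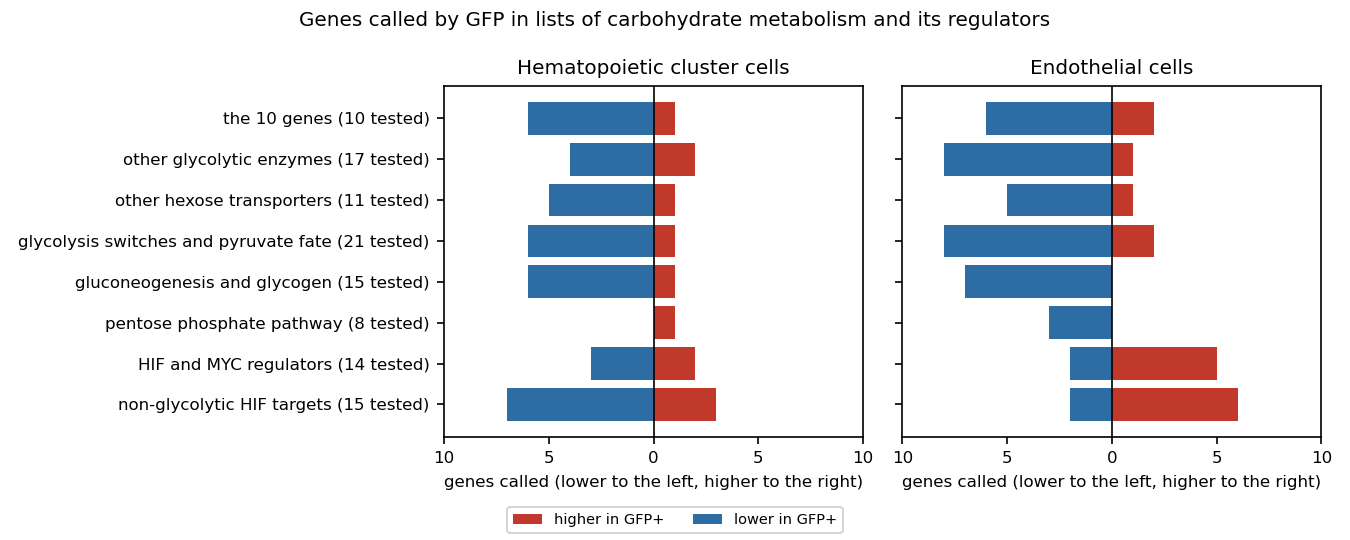
Number of genes called higher (right) or lower (left) in GFP+ than in GFP- cells (x axis, limma adjusted p under 0.05) in each list (y axis, with the number tested). Among other glycolytic enzymes 4 were lower in cluster and 8 in endothelial cells, and among HIF targets outside glycolysis 7 and 2.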

How the data were processed

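Cy3-labelled RNA of 8 samples (4 groups of 2) was read on 1-colour Agilent arrays. Per the labels' protocols, each pool's RNA was divided in 2 before amplification, and labelling began from 50 ng. Per the file headers, the deposited intensity values are background-corrected processed signals from Agilent Feature Extraction (version 10.10.1.1 in the submitters' processing notes). A second deposited file holds normalized intensity on a linear scale, and the sources used here do not say how the authors normalized it. Its columns shared a median of 198 and followed the running order of spots (r of log2 values from 0.997 to 1.000), and it served as an alternative.

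From each array's log2 signals the 75th percentile of non-control probes was subtracted, flagged spots were left out and spots of a probe averaged. The brightest probe stood for its gene, and genes entered the test if some group had both arrays well above background. One limma fit (version 3.58.1, in R 4.3.3) over the 8 arrays gave 5 contrasts with 4 residual degrees of freedom, two-sided, with Benjamini-Hochberg adjustment and a threshold of 0.05. The script was tested on simulated data. Precision is limited by the number of arrays. The replicate number is the slide: replicate differences of the groups correlated at 0.139 to 0.36 over genes for the 6 pairs of groups, so same-numbered arrays are paired. Probe coordinates are those of the files (mm9), and promoter windows are from RefSeq (GRCm38.p6).

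The genes described and all lists were chosen with earlier results of these data known. Of each other list, counts are given, and by name at most 5 genes a comparison, taken from those with the largest differences among called genes well above background on all arrays (all called genes where 3 or fewer were called); Slc2a3 by GFP, Pklr and Gapdh after quantile normalization are given beside these for comparison. Alternatives were background correction, scaling, the authors' table, the filter, the choice of probe, the slide as a block or alone, moderated variances, the groups fitted, a 2-fold threshold and each array left out. One gene that this rule names is not reported here.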

Additional observations from a re-analysis of the deposited data

Results flagged for a closer look

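By limma's interaction test on the brightest probes, 3 of the 10 genes had a GFP difference that differed between cluster and endothelial cells. The test called 31.1% of all genes, so 3 of 10 is near that share. The interaction is given as the cluster difference minus the endothelial one on the log2 scale. It was 0.53 for Slc2a1, 0.29 for Gpi1 and -0.32 for Pgk1. Of the dimmer probes, an Ldha probe also passed and a Gpi1 probe did not, as given above. Slc2a1 was lower with GFP on both arrays of both classes, and more so in endothelial cells. With quantile normalization its interaction of 0.36 did not pass by limma's test (adjusted p = 0.0793). The interaction calls of all 3 genes were lost without most single arrays, as given above. For Gpi1 the sign of the endothelial GFP difference turned with the scaling, from -0.22 to 0.14 with quantile normalization, where the gene was called higher with GFP in both classes and the interaction of 0.062 did not pass. For Pgk1 both GFP+ arrays read above both GFP- arrays in endothelial cells, a difference of 0.11 that did not pass, and below them in cluster cells. The groups had 2 arrays each, too few to look for arrays that stand apart.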

How the results depend on the processing

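Over the 10 genes and 5 comparisons, 930 refits under another setting left 725 on the same side of the threshold and in the same direction. In 127 a call was lost, in 16 one was gained, in 6 a direction turned where either value was called, and in 56 the sign of a value called in neither fit changed. Calls of the 10 genes and of all genes are given below as genes of the 10 and genes of all.

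In cluster cells by GFP, 7 of the 10 and 6399 of all genes were called. The planned normexp correction gave 0 and 126, median centring 3587 of all, no filter on dim probes 4 and 3793, a 2-fold threshold 0 and 1052, and quantile normalization, the authors' table and a fit of the compared groups 4 of the 10 each. In endothelial cells by GFP, where 8 and 10066 were called, normexp gave 0 and 100, median centring 5 and 6528, no filter 4 and 8196, and the 2-fold threshold 1 and 1398. Among GFP+ cells by class (4 and 9838), normexp gave 0 and 135 and the 2-fold threshold 0 and 1928. Among GFP- cells by class (3 and 4743), normexp gave 0 and 14, normexp without the lowest spots 2673 of all, median centring 2879, no filter 1466, the compared groups 2576, and the 2-fold threshold 0 and 418. For the interaction (3 and 6087), normexp gave 0 and 1, normexp without the lowest spots 1 and 3725, median centring 0 and 2889, no filter 0 and 2743, and the 2-fold threshold 0 and 1109.

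With 1 array left out, the counts ran from 4 to 6 and 3682 to 5737 in cluster cells, 4 to 8 and 7218 to 10085 in endothelial cells, 3 to 4 and 7466 to 9140 among GFP+ cells, 2 to 3 and 1607 to 4213 among GFP- cells, and 0 to 3 and 3590 to 4656 for the interaction.

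The endothelial GFP difference of Gpi1 turned to 0.028 with normexp and to 0.14 with quantile normalization and in the authors' table, where that of Aldoa turned to 0.36. The Gpi1 difference by class among GFP+ cells was -7.29e-06 with median centring. The causes were not tested. The share of calls that were higher moved from 35.2% to 48.3% in endothelial cells with quantile normalization (48.4% in the authors' table, 44.5% with median centring), and with median centring from 51.9% to 29% among GFP+ and from 48.8% to 25.6% among GFP- cells by class.

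With the slide as a replicate block, the pairing called 7, 8, 4, 3 and 3 of the 10 genes in the 5 comparisons, and it changed no call of the 10; over all genes it called 6878, 11142, 10785, 5234 and 7093. Residual spread came from 2 arrays a group, all member probes were far above background, and precision was limited by the number of arrays and by probe choice.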
